A study of Mus musculus with 12 samples.

Results

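Ribosomal protein pseudogenes are genomic copies of ribosomal protein genes that are annotated as no longer coding for the protein. The 200 described here were the most highly listed ones in RNA-Seq of U2OS cells. They were chosen from 2204 listed pseudogenes whose full name starts with "ribosomal protein", by the highest mean FPKM over all 12 libraries. FPKM counts fragments per kilobase of a gene's listed length after scaling for depth, so a comparison of genes of unequal length depends on the lengths listed. The table held 58735 genes, of which 15224 were pseudogenes, and 884 of the ribosomal protein pseudogenes were listed at 0 in every library. Because the mean level chose the members, their mean levels are given as a description and carry no test, and only differences between groups were tested. The last members were RPS12 pseudogene (0.664 FPKM), RPL21 pseudogene 93 (0.660) and RPL15 pseudogene (0.625). The nearest ones left out were RPS26 pseudogene (0.613), RPL22 pseudogene 12 (0.607) and RPS26 pseudogene 41 (0.606).

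Most such pseudogenes are processed copies, which arose when the mRNA of a ribosomal protein was reverse transcribed and inserted elsewhere in the genome. They lack introns and usually lack a promoter of their own, and many stay close to the parent mRNA in sequence. Ribosomal protein mRNAs are among the most abundant in growing cells, and a short read from one can match the gene and several copies of it. How reads that match more than 1 place were assigned, and the aligner, the counting program and the human genome build, are not given in the sources used here. Reads of a member and of its parent are therefore uncertain wherever the copies are near-identical.

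U2OS is a human osteosarcoma cell line. The libraries formed 4 groups of 3 replicates, namely blank U2OS cells, U2OS cells transfected with the siRNA siSRSF1-2, U2OS cells transfected with the siRNA siSRSF1-3, and U2OS cells in which LINC01134, a long non-coding RNA, was overexpressed (OE-LINC01134). SRSF1 encodes a serine/arginine-rich splicing factor, and the study asked what its loss does in osteosarcoma cells. No library of cells given a control siRNA or a control for overexpression was analysed here. Each siRNA group therefore differs from the blank cells by transfection as well as by the siRNA, and these cannot be told apart. Likewise, the overexpression procedure and LINC01134 itself cannot be told apart in the OE-LINC01134 group. By the labels the organism is mouse, whereas the genes carry human Ensembl identifiers. Transient transfection is described in the methods for HOS, also an osteosarcoma line, whereas by the labels all these libraries come from U2OS. The methods speak of biological replicates, but no source used here ties the 3 libraries of a group to separate cultures, so p-values measure the spread between these libraries, which may be technical.

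Each library had from 26237763 to 32954539 reads on genes. SRSF1 was at 19.8 to 35.9 FPKM in the blank libraries, 7.09 to 7.46 with siSRSF1-2, 3.33 to 7.90 with siSRSF1-3 and 29.6 to 31.8 with OE-LINC01134. LINC01134 was at 878 to 1279 FPKM in the OE-LINC01134 libraries and at most 0.791 in the blank ones. Of the markers of the line, VIM, SPARC, COL1A1, ALPL and RUNX2 were present in every library, while COL1A2 and SP7 were near 0 and BGLAP reached at most 0.384 FPKM. Of the markers of other cell types, KRT8 was at 10.6 to 58.4 FPKM, HBB at 5.93 to 50.9 and EPCAM at 0.918 to 2.43. CDH1 reached at most 0.862 FPKM, and PTPRC, CD14, PECAM1 and VWF at most 0.368. The siSRSF1-3 libraries differed among themselves, with a chi-square per degree of freedom between pairs, over genes, of 108 to 373. It was 74.9 to 80.9 for pairs with blank replicate 1 or OE-LINC01134 replicate 2 and 2.22 to 3.45 for all other pairs within a group. The FPKM scaling corresponded to 0.712 times the read total in siSRSF1-3 replicate 1, to 0.888 times in replicate 2 and to between 0.990 and 1.09 times in the other libraries. Ribosomal protein genes took 18.8%, 13.5% and 7.83% of reads in siSRSF1-3 replicates 1, 2 and 3, against 6.41% to 7.13% in the blank libraries.

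The 200 members were copies of 67 ribosomal protein genes. Of these parents, 23 had 1 member, 31 had 2 to 4, and 13 had 5 or more, which together held 87 members. Large-subunit proteins accounted for 128 members and small-subunit proteins for 72. By annotation 181 were processed pseudogenes, 15 were transcribed processed pseudogenes, 2 were unprocessed and 2 were transcribed unprocessed. They lay on 23 chromosomes, with 27 on chromosome 1 and 6 on chromosome X, and 12 shared a chromosome with their parent. The median listed length was 484 bases (range 75 to 4504), against a median of 3130 bases for the parents.

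Levels were very uneven. The median member had 3.14 FPKM and 51.8 reads per library. A mean of at least 100 FPKM was reached by 21 members and at least 10 FPKM by 63, whereas 72 lay under 2 FPKM. In terms of reads, 24 members had at least 1000 per library on average, 24 had fewer than 10, and 17 had 0 reads in at least 1 library, where a count of 0 allows up to 3 reads by counting error alone. Values of those members carry wide counting error.

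The highest member was RPS28 pseudogene 7 (ENSG00000227097, chromosome 11, 82689559 to 82689768), a processed copy of the gene of a small-subunit protein. Its FPKM was 1491, 1336 and 1372 in the blank libraries, 1256, 1101 and 1200 with siSRSF1-2, 9552, 4569 and 1729 with siSRSF1-3, and 1413, 1723 and 1357 with OE-LINC01134. Every siSRSF1-3 library lay above the other groups and every siSRSF1-2 library below the blank ones. RPL9 pseudogene 9 (ENSG00000237550, chromosome 15), annotated as transcribed, copies the gene of a large-subunit protein and was next. It had 681, 711 and 770 FPKM in blank cells, 729, 745 and 734 with siSRSF1-2, 4103, 2290 and 977 with siSRSF1-3, and 712, 883 and 708 with OE-LINC01134. Here the siSRSF1-3 libraries again lay above all others, while siSRSF1-2 and blank libraries overlapped.

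The other members of the leading 10 were the RPL36A pseudogene on chromosome 11 (mean 525 FPKM), RPL10 pseudogene 9 (508), the RPS27 pseudogene on chromosome 12 (455), RPS2 pseudogene 5 (382), the RPS10 pseudogene on chromosome 11 (323), RPL10 pseudogene 16 (311), RPL3 pseudogene 4 (256) and RPL13A pseudogene 5 (172). RPL10 joins the large subunit late in its assembly and RPL3 lies near the centre where peptide bonds form. The leading 3 members took between 25.1% and 35.7% of all member reads in a library.

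Set against the parent, the median member had 1.70% of the parent's FPKM and 0.245% of its reads. The FPKM of 88 members was under 1% of the parent's. However, 16 members had a higher FPKM than the parent and 7 had more reads. The largest excess was that of the RPS10 pseudogene on chromosome 11 (ENSG00000244313), at 229 times the FPKM listed for RPS10, a small-subunit gene. Next came the RPL36A pseudogene on chromosome 11 (ENSG00000244398), at 168 times the level of the large-subunit gene RPL36A, and RPS28 pseudogene 7, at 35.1 times that of RPS28. FPKM divides by the listed length, which is 210 bases for RPS28 pseudogene 7 and 2119 bases for RPS28, and by reads the pseudogene still had 340% of the parent. By contrast, RPL10 pseudogene 9 had 508 FPKM against 305 for RPL10 but only 19.4% of its reads. An FPKM above the parent's therefore need not mean more reads than the parent.

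Among the parents with copies above them, RPS10 was listed at a mean of 1.41 FPKM, RPL36A at 3.12 and RPL17 at 6.78, while RPS28 was at 66.8. Each of the 3 former genes overlaps a listed readthrough gene (RPS10-NUDT3, RPL36A-HNRNPH2 and RPL17-C18orf32), and the readthrough genes had 0.00281, 0.0165 and 0.0117 FPKM. They are the parents of 17 members, 7 for RPS10, 6 for RPL36A and 4 for RPL17, and 8 of the 16 members above their parent were among them. How reads were shared between these parents, the readthrough genes and the copies was not tested.

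**Figure D1:**
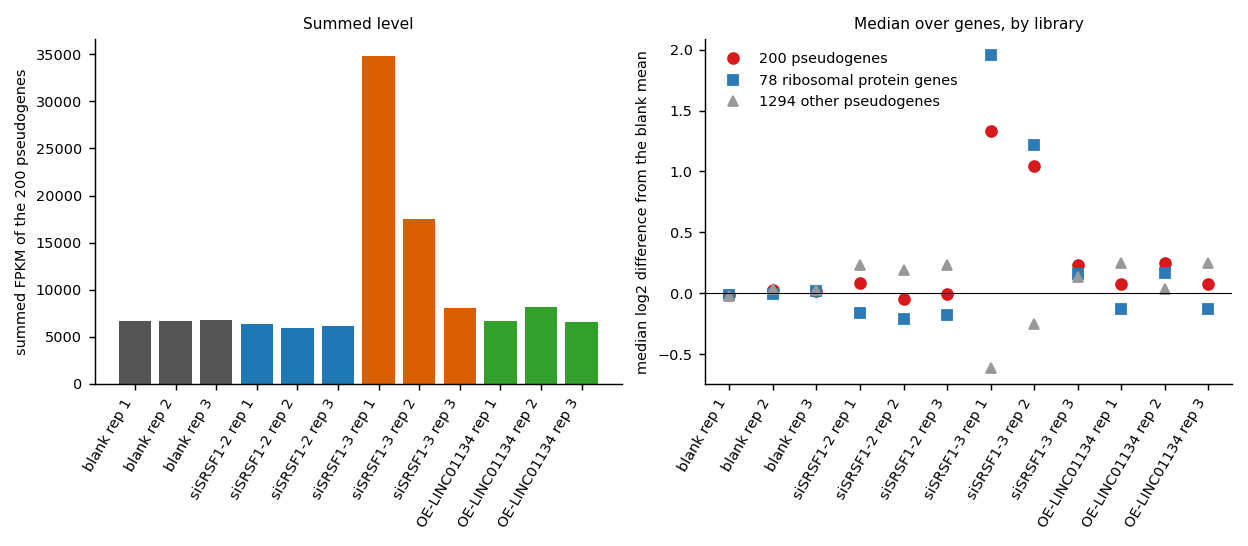
The left panel gives the summed FPKM of the 200 pseudogenes in each library, and the right panel the median log2 difference from the blank mean over the 200 pseudogenes, 78 ribosomal protein genes and 1294 other pseudogenes tested. The summed level was 34844, 17522 and 8084 FPKM in siSRSF1-3 replicates 1 to 3 and between 5973 and 8121 in the other libraries.

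Summed over the 200 members, blank cells had 6706 ± 49.9 FPKM, siSRSF1-2 cells 6148 ± 164, siSRSF1-3 cells 20150 ± 13572 and OE-LINC01134 cells 7120 ± 871 (mean ± SD over 3 libraries each). All siSRSF1-3 sums were above and all siSRSF1-2 sums below those of the blank libraries, and for each p was 0.1 in an exact permutation test (two-sided), the smallest that 3 libraries against 3 can give. The OE-LINC01134 sums overlapped the blank ones (exact permutation p = 0.8). As a share of all reads on genes, the members took 0.782% ± 0.337 with siSRSF1-3, 0.373% ± 0.00777 with siSRSF1-2, 0.382% ± 0.0324 with OE-LINC01134 and 0.366% ± 0.0249 in blank cells (mean ± SD of 3 libraries). By this share siSRSF1-3 again lay above all blank libraries (exact permutation p = 0.1), whereas siSRSF1-2 overlapped them (exact permutation p = 0.8). With members chosen on the 9 libraries other than siSRSF1-3, an alternative added after the data were seen, the sums were 20123 ± 13541 FPKM with siSRSF1-3 and 6708 ± 50.3 in blank cells. Without the leading 3 members the sum was 11280 ± 7115 FPKM with siSRSF1-3 and 4258 ± 40.3 in blank cells (SD, n = 3). In bulk RNA, a change in the number of cells of a kind and a change in RNA per cell cannot be told apart.

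Per 100 reads on ribosomal protein genes, the members held 5.26, 5.33 and 5.35 reads in the blank libraries and 5.99, 5.68 and 5.79 with siSRSF1-3. Relative to ribosomal protein genes, the members therefore differed far less between these groups than their summed FPKM did. The same share was 5.86, 5.90 and 5.87 with siSRSF1-2 and 5.74, 5.52 and 5.72 with OE-LINC01134. Each of the 3 other groups lay above all blank libraries (exact permutation p = 0.1 for each, two-sided), and the siRNA groups overlapped each other (exact permutation p = 0.7).

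Whether members followed their parents was described by Pearson r of log2(FPKM + 0.1) between a member and its parent over the 12 libraries. The libraries share scaling, depth and preparation, and siSRSF1-3 replicates 1 and 2 stand apart for ribosomal protein genes as a whole, so r is a description with no p. The median r of the 200 members was 0.71 (quartiles -0.18 and 0.93). It was over 0.9 for 66 members, over 0.5 for 115 and below 0 for 58. For comparison, 564 pseudogenes of other families had a median r of 0.18 with their parents, but over the 10 libraries other than siSRSF1-3 replicates 1 and 2 both medians were 0.22.

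The r fell with the level. It had a median of 0.97 among the 50 highest members (median 965 reads per library), 0.84 among the next 50 (95.8 reads), 0.39 among the 50 after those (24.9 reads) and 0.08 among the last 50 (11.2 reads). Over those 10 libraries the median was 0.76 for the 50 highest, and 0.23, -0.02 and -0.03 for the lower tiers in the same order. Over the deviations from the group means it was 0.95 for the 50 highest and 0.57 for all 200 members.

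**Figure D2:**
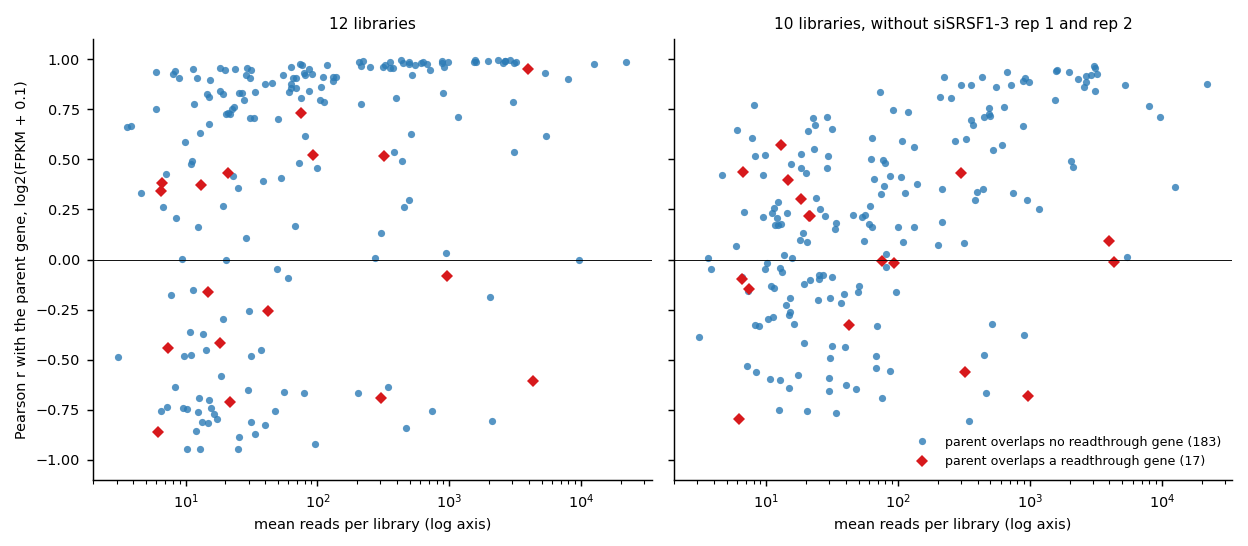
Each point is 1 of the 200 pseudogenes, with its mean reads per library on a log axis and its Pearson r with the parent gene over 12 libraries (left) or over 10 libraries (right). Most members with many reads had values near 1 over 12 libraries, members with few reads were spread from -0.95 to over 0.9, and the 17 members whose parent overlaps a readthrough gene are drawn as diamonds.

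A high r with the parent went with a high r with other ribosomal protein genes. For each member the median r with the other ribosomal protein genes was taken, and these medians had a median of 0.75. The r with the parent was above the member's own such median for 123 of the 200 members and 35 of the 50 highest. Pairs of ribosomal protein genes had a median r of 0.98 among themselves. By r, the own parent had a median rank of 29 among the 78 ribosomal protein genes, was the closest gene for 12 members and was among the closest 10 for 45. Among pairs of the 50 highest members, copies of 1 parent had a median r of 0.95 (16 pairs) and copies of different parents 0.88 (1209 pairs). Among pairs of all members these were 0.30 (364 pairs) and 0.29 (19536 pairs), and over the 10 libraries 0.068 and 0.086.

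Among the highest r were those of RPL4 pseudogene 4 (0.996), a copy of the gene of a protein that lines the exit tunnel of the ribosome, and RPL21 pseudogene 16 (0.996). RPL4 pseudogene 4 had 6.58, 8.11 and 7.79 FPKM in blank cells, 7.46, 7.04 and 7.33 with siSRSF1-2, 60.2, 21.0 and 7.67 with siSRSF1-3, and 7.525, 10.8 and 7.14 with OE-LINC01134. RPL4 had 410, 436 and 450 FPKM in the blank libraries and 1130, 717 and 436 with siSRSF1-3. Both were highest in siSRSF1-3 replicate 1 and within the blank range in replicate 3, with a log2 fold change of siSRSF1-3 against blank cells of 1.503 for the pseudogene and 0.71 for the parent. RPL13A pseudogene 5 (ENSG00000236552, chromosome 10) was the one of the leading 10 members whose parent ranked closest, at r = 0.995. RPL13A encodes a large-subunit protein that also takes part in silencing the translation of some mRNAs.

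The lowest r were those of an RPL7A pseudogene on chromosome 1 (ENSG00000228955, -0.95), RPL13 pseudogene (ENSG00000241634, -0.95) and the RPL37 pseudogene on chromosome 2 (ENSG00000237916, -0.95). RPL13 pseudogene had 2.41, 1.80 and 1.32 FPKM in blank cells, 1.505, 2.19 and 2.16 with siSRSF1-2, 0, 0 and 1.57 with siSRSF1-3, and 2.17, 2.66 and 1.92 with OE-LINC01134. The libraries at 0 were the ones where RPL13 was highest, at 1458 and 705 FPKM. The RPL7A pseudogene was likewise listed at 0 in siSRSF1-3 replicates 1 and 2, and the RPL37 pseudogene in replicate 1. All 3 had at most 24.8 reads per library on average.

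Of the leading 10 members, 2 had an r with the listed parent near or below 0. RPS2 pseudogene 5 (ENSG00000240342, chromosome 12) had 380, 385 and 343 FPKM in blank cells, 373, 354 and 370 with siSRSF1-2, 238, 633 and 435 with siSRSF1-3, and 342, 385 and 343 with OE-LINC01134. It was lowest of all in siSRSF1-3 replicate 1, where its parent RPS2, a small-subunit gene, was highest at 2297 FPKM, and highest in replicate 2 (r = -0.00446, and 0.71 over the 10 other libraries). The RPL36A pseudogene on chromosome 11 had 314, 336 and 331 FPKM in blank cells, 296, 260 and 281 with siSRSF1-2, 2182, 826 and 380 with siSRSF1-3, and 322, 448 and 321 with OE-LINC01134. Its r was -0.61 with the listed RPL36A, which had 2.11, 2.36 and 3.16 FPKM with siSRSF1-3 and 2.40 to 4.52 in blank cells, and its median r with the other ribosomal protein genes was 0.98.

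For the 17 members whose parent overlaps a readthrough gene, the median r was -0.08 with the parent and 0.50 with the other ribosomal protein genes. For the other 183 members the median r with the parent was 0.76.

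**Figure D3:**
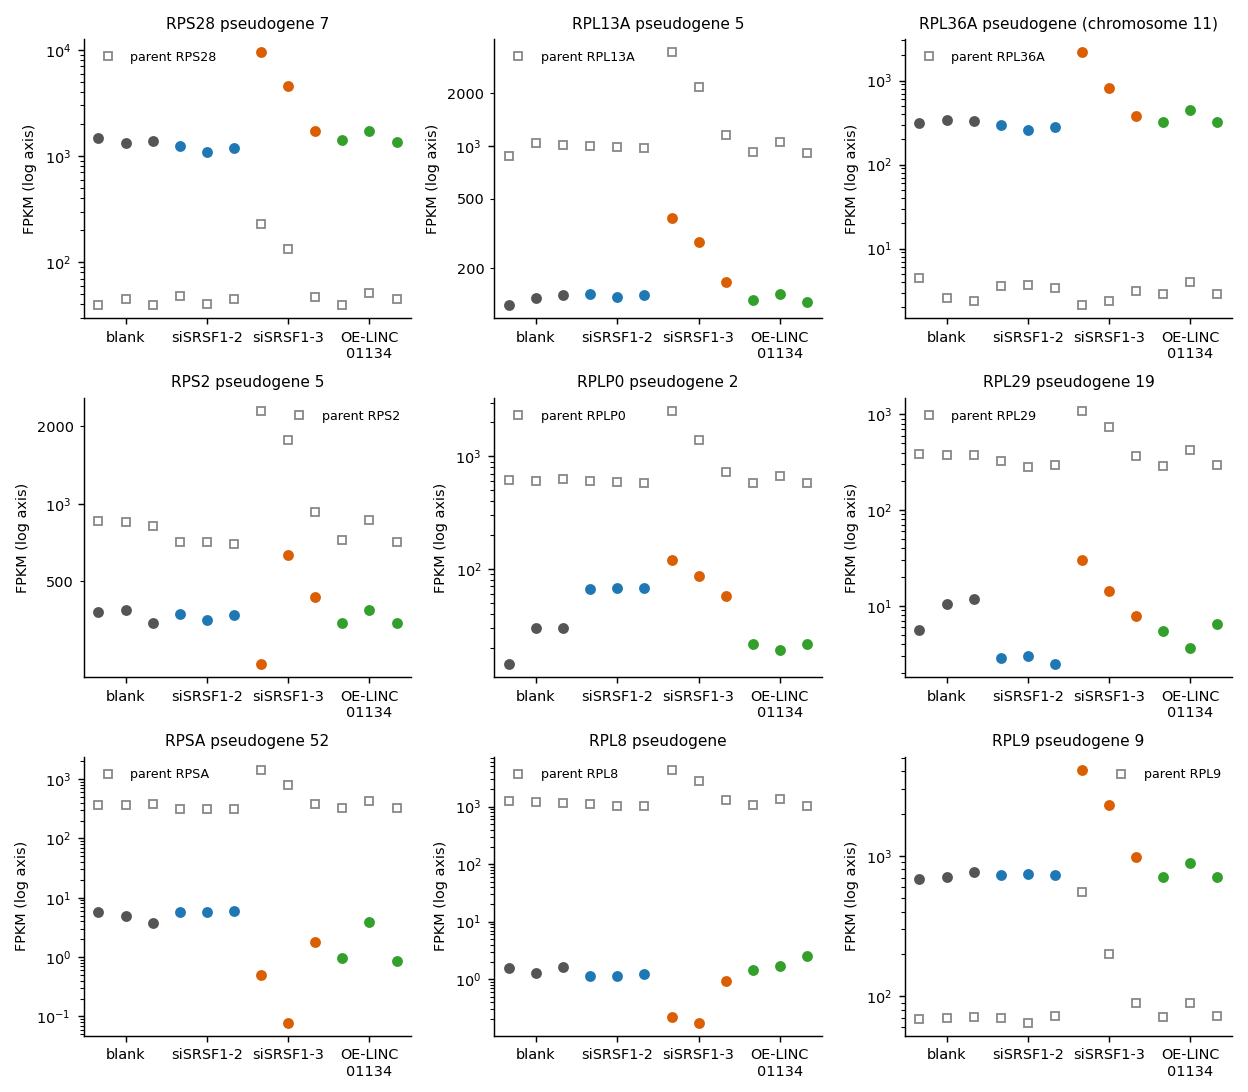
FPKM of 9 named pseudogenes (filled circles) and of their parents (open squares) in the 12 libraries, each panel with its own log axis and 3 replicates per group in order. RPS28 pseudogene 7 and RPL13A pseudogene 5 were, like their parents, highest in siSRSF1-3 replicate 1, whereas RPSA pseudogene 52 and RPL8 pseudogene were lowest in siSRSF1-3 replicates 1 and 2, where their parents were highest.

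Position was also compared. Of the members, 49 lay within the span of another gene on the same strand, 71 within one on the other strand only and 80 within none. The 49 with a same-strand host had a median r of 0.59 with the parent and 0.17 with the host, and r with the host was above r with the parent for 20 of them. Some were chosen after their values were seen. The RPS10 pseudogene within the tuftelin 1 gene on chromosome 1 had an r of 0.96 with that host and -0.16 with RPS10. The listed RPS10 had a mean of only 1.41 FPKM and overlaps a readthrough gene, which limits the latter r. The RPL7A pseudogene ENSG00000234329, also chosen so, lies within the gene of GC-rich promoter binding protein 1 like 1. It had 0.77 with the host and -0.87 with RPL7A. The RPS2 pseudogene on chromosome 1 (ENSG00000232450) had an r of 0.73 with PHTF1, in whose span it lies, and -0.58 with RPS2. By contrast, RPL22 pseudogene 1 (ENSG00000213178), within the MDS1 and EVI1 complex locus, had -0.86 with the host and 0.99 with RPL22, whose product also binds viral and cellular RNAs outside the ribosome.

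With siSRSF1-3 against blank cells, the copies were on balance higher, as were their parents, and 0 passed the threshold singly. The median log2 fold change of the 200 members was 0.85 (quartiles 0.11 and 1.48, range -3.04 to 3.62), with 153 above 0, beside a median of 1.11 for 78 ribosomal protein genes, -0.27 for 1294 other pseudogenes and -0.01 for all 17538 genes tested. Taken library by library against the blank mean, the member median was 1.34 in siSRSF1-3 replicate 1, 1.05 in replicate 2 and 0.23 in replicate 3, and that of the ribosomal protein genes was 1.95, 1.21 and 0.16. A gene passed with an adjusted p under 0.05 from limma on log2(FPKM + 0.1) and an absolute log2 fold change over 1. By that rule 0 members were higher and 0 lower, where 0.331% of all genes were higher and 0.929% lower. Without adjustment of p, 55 of the 200 members were higher and 8 lower, where 7.57% and 7.24% of all genes were, and limma's voom on recovered reads called 1, which was higher. Without siSRSF1-3 replicate 3 the limma calls came to 98 of the 200 members higher and 16 lower, where 12.5% and 11.4% of all genes were called.

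In this comparison 79 members lay above every blank library in all 3 siSRSF1-3 libraries, or 39.5%, where 19.2% of all genes did. Below every blank library were 8 members, or 4%, where 18.0% of all genes were. The 50 highest members had a median of 1.25 and the last 50 a median of 0.27. These ranks rest on the mean over all libraries, so a copy that is high with siSRSF1-3 ranks higher. The difference between these medians is therefore partly built in, and they were not redone on the other libraries. The mean over all libraries, siSRSF1-3 among them, chose the members, and 12 of the 200 would not have been chosen on the 9 other libraries. With members chosen on those 9 libraries the median was 0.79.

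Set beside the parent's own log2 fold change, 89 members lay within 0.5 of it, 16 were more than 1 above and 46 more than 1 below, and 149 (74.5%) had the parent's sign. Of the 50 highest members 29 lay within 0.5 and of the last 50, 15 did. The log2 ratio of a member to its parent was tested with limma over 797 pairs of a pseudogene and its parent of all families. Of these 797 pairs, 80 had the pseudogene more than 1 above the parent's log2 fold change and 205 more than 1 below. With siSRSF1-3, 0 members had a higher and 0 a lower ratio past the threshold (7 and 19 without adjustment, where 5.90% and 9.03% of all pairs were), and 0% of all pairs passed in either direction. Without siSRSF1-3 replicate 3, 49 members did, where 26.0% of all pairs did.

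The smallest p among higher members was that of RPLP0 pseudogene 2 (ENSG00000243742, chromosome 11, 61615036 to 61639449), annotated as a transcribed processed pseudogene of the gene of a protein of the ribosomal stalk. It had 14.3, 29.7 and 29.7 FPKM in blank cells and 119, 86.5 and 58.0 with siSRSF1-3, without overlap. Its log2 fold change was 1.85 (standard error 0.39, limma adjusted p = 0.0612), next to 1.15 for RPLP0. RPL23A pseudogene 93 (ENSG00000232873), a copy of the gene of a large-subunit protein near the tunnel exit, had 0.224, 0.872 and 0.442 FPKM in blank cells and 1.79, 1.95 and 2.72 with siSRSF1-3. Its log2 fold change was 2.00 (limma adjusted p = 0.0664) on 19.3 reads per library. RPL12 pseudogene 4 (ENSG00000185834), whose parent encodes a protein at the base of the stalk, had a log2 fold change of 1.55 (limma adjusted p = 0.0672).

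On the lower side, RPSA pseudogene 52 (ENSG00000241749, chromosome 12), annotated as transcribed, is a copy of the gene of a small-subunit protein also known as the laminin receptor. It had 5.70, 4.84 and 3.76 FPKM in blank cells, 5.65, 5.76 and 5.94 with siSRSF1-2, 0.501, 0.0773 and 1.77 with siSRSF1-3, and 0.967, 3.87 and 0.860 with OE-LINC01134. The siSRSF1-3 libraries lay below every blank library, while RPSA itself was at 1438, 791 and 377 FPKM there against 365 to 380 in blank cells. The log2 fold change was -3.04 (standard error 0.78, limma adjusted p = 0.0849). RPL8 pseudogene (ENSG00000232926) had 1.59, 1.29 and 1.66 FPKM in blank cells and 0.224, 0.173 and 0.940 with siSRSF1-3, a log2 fold change of -1.83 (limma adjusted p = 0.104), next to 1.07 for the large-subunit gene RPL8. The RPS2 pseudogene on chromosome 1 had a log2 fold change of -2.09 (limma adjusted p = 0.0959), next to 0.88 for RPS2.

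Families differed in how far copies kept together. The RPL21 family, copies of a large-subunit gene, had 10 members with a median r of 0.93 with RPL21. Their median change with siSRSF1-3 was 1.72 (log2, range -0.27 to 1.98), next to 1.61 for RPL21, and 9 of the 10 were above 0. The RPL7A family also had 10 members, of which 7 were above 0, with a median of 0.84 next to 0.77 for RPL7A. The 8 copies of RPSA ranged from -3.04 to 2.30 with a median of 0.86, next to 1.02 for RPSA, and their median r was 0.26. RPL13A, RPL23A, RPL39 and RPS10 had 7 copies each, with medians of 0.73, 0.97, 0.81 and 0.51 next to 1.07, 0.80, 1.14 and 0.65 for the parents. In the same order the copies ranged from -1.89 to 2.25, -0.65 to 2.00, -1.13 to 3.62 and -0.51 to 1.61. All 5 copies of RPL7 were above 0 (0.63 to 3.10). Of the other families with 5 copies, RPS12 and RPS20 had 4 above 0, and RPS2 and RPS26 had 3. RPL36A had 3 of its 6 copies above 0. These families are described only, since members of 1 family share sequence and may share reads.

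**Figure D4:**
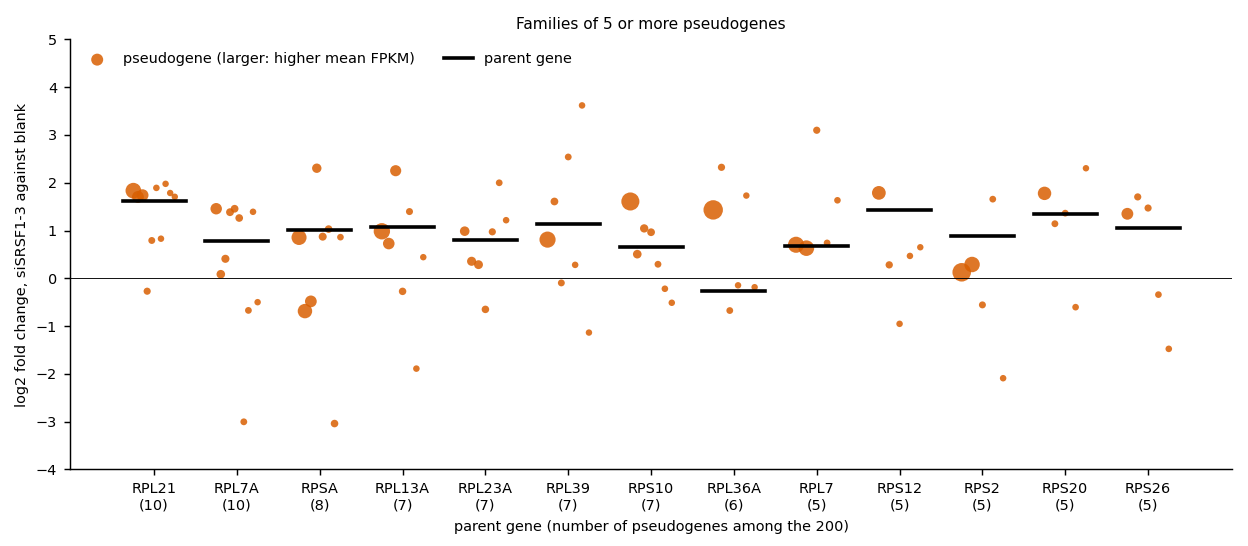
Log2 fold change of siSRSF1-3 against blank cells for each pseudogene of the 13 families with 5 or more members (circles, larger for a higher mean FPKM) and for the parent gene (bars), with the number of members in brackets. The RPL21 copies cluster near the parent's 1.61, while the RPSA copies run from -3.04 to 2.30.

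With siSRSF1-2 against the same blank libraries, members went both ways and 11 passed the threshold. The median of all 200 was 0.02 (log2), and that of the 50 highest was -0.11 with 37 of them below 0. The median of 0.02 stood beside -0.19 for the ribosomal protein genes, 0.21 for other pseudogenes and 0.02 for all genes. By limma 9 members were higher and 2 lower, or 4.5% and 1% of the 200, where 2.22% of all genes were higher and 2.73% lower. Counts at an unadjusted p were 11 and 3 (3.06% and 3.43% of all genes), and voom called 8 and 2 (2.59% and 3.01% of all genes). Without siSRSF1-2 replicate 1, 2 or 3 the calls came to 7, 6 and 3 of the 200, where 3.34%, 3.22% and 3.04% of all genes were called. Without a blank library they came to between 10 and 15, where 4.45% to 6.77% of all genes were called.

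Above every blank library were 27 members (13.5%), where 25.3% of all genes were, and below every blank library were 30 (15%), where 24.2% of all genes were. Among the 50 highest members, 2 lay above and 21 below. Of the ribosomal protein genes, 55 of 78 lay below every blank library. Within 0.5 of the parent's log2 fold change were 134 members, and 46 of the 50 highest.

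RPLP0 pseudogene 2 was the one call among the 50 highest members. It had 66.0, 68.5 and 67.6 FPKM with siSRSF1-2, each above the highest blank library at 29.7, while RPLP0 had 583 to 604 FPKM with siSRSF1-2 and 601 to 629 in blank cells. It rose by a log2 fold change of 1.53 (standard error 0.29, limma adjusted p = 0.0133), and its ratio to RPLP0 by 1.58 (limma adjusted p = 0.0123). It lay at 21.7, 19.1 and 21.6 FPKM with OE-LINC01134, within the blank range.

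Among the largest rises were those of RPL26 pseudogene 28 and RPL23A pseudogene 93, both under 20 reads per library on average. RPL26 pseudogene 28 (ENSG00000223987, chromosome 10) had 0.332, 0.0809 and 0.351 FPKM in blank cells and 1.60, 1.63 and 1.49 with siSRSF1-2. It rose by a log2 fold change of 2.35 (standard error 0.39, limma adjusted p = 0.00905) while RPL26, whose product also binds the p53 mRNA, had -0.47. RPL23A pseudogene 93 had 2.01, 2.38 and 3.26 FPKM with siSRSF1-2 and rose by 2.23 (limma adjusted p = 0.0134). In both the groups did not overlap.

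Other higher calls, named after their values were seen, were those of RPL22 pseudogene 24 (1.71), RPL23A pseudogene 53 (1.20), the RPL7A pseudogene ENSG00000234329 (1.16) and RPS26 pseudogene 21 (1.01). Both falls were in members of moderate or low level. RPL29 pseudogene 19 (ENSG00000224594), a copy of the gene of a heparin-binding large-subunit protein, had 5.57, 10.4 and 11.8 FPKM in blank cells, 2.88, 3.02 and 2.45 with siSRSF1-2, 29.9, 14.3 and 7.88 with siSRSF1-3, and 5.40, 3.58 and 6.46 with OE-LINC01134. The siSRSF1-2 libraries were the lowest of the 12. It fell by 1.64 on the log2 scale (limma adjusted p = 0.0105), next to -0.33 for RPL29. The RPS2 pseudogene on chromosome 1 had 2.12, 1.55 and 1.27 FPKM in blank cells and 0.652, 0.362 and 0.415 with siSRSF1-2, a log2 fold change of -1.60 (limma adjusted p = 0.0101), next to -0.26 for RPS2.

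The ratio to the parent passed the threshold for 11 members with siSRSF1-2, 9 higher and 2 lower, or 4.5% and 1%, where 7.03% of all 797 pairs were higher and 0.627% lower (15 and 2 members without adjustment, where 11.4% and 1% of all pairs were). They were the same 11 members as the calls on the level. Without siSRSF1-2 replicate 1, 2 or 3 there were 2, 5 and 2 such calls (2.26%, 3.26% and 1.88% of all pairs), and without blank replicate 3 there were 6 (3.89% of all pairs). The ratio rose by 2.82 for RPL26 pseudogene 28 and by 2.32 for RPL23A pseudogene 93 (limma adjusted p of 0.00664 and 0.0232). The falls were -1.35 for the RPS2 pseudogene on chromosome 1 and -1.30 for RPL29 pseudogene 19 (limma adjusted p of 0.0372 and 0.0312).

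Several of the leading members had a small adjusted p without reaching the fold threshold with siSRSF1-2. The RPS27 pseudogene on chromosome 12 (ENSG00000227081), whose parent encodes a zinc finger protein of the small subunit, had 365, 375 and 378 FPKM in blank cells and 270, 258 and 284 with siSRSF1-2. Its log2 fold change was -0.46 (limma adjusted p = 0.00399), next to -0.28 for RPS27. The RPS10 pseudogene on chromosome 11 had 177, 187 and 172 FPKM in blank cells and 120, 114 and 130 with siSRSF1-2, a log2 fold change of -0.56 (limma adjusted p = 0.00399). In both, each siSRSF1-2 library lay below each blank one. RPS28 pseudogene 7 had a log2 fold change of -0.24 while its parent had 0.12, a change of the ratio of -0.35 (limma adjusted p = 0.0323).

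**Figure D5:**
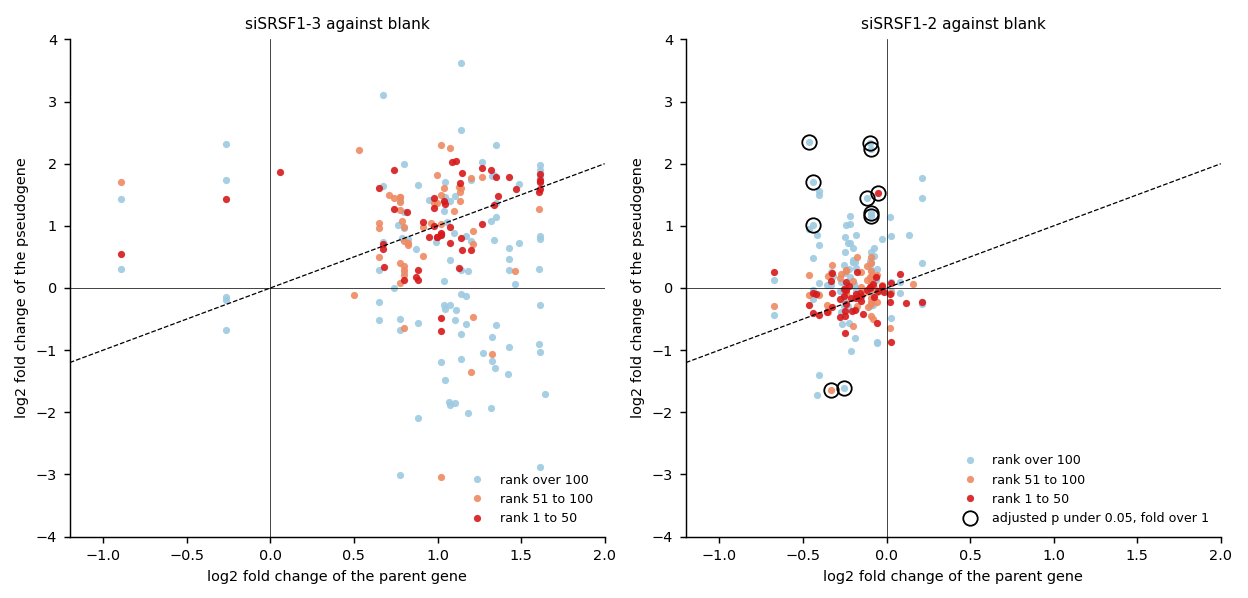
Log2 fold change of each of the 200 pseudogenes against that of its parent gene, for siSRSF1-3 (left) and siSRSF1-2 (right) against blank cells, coloured by rank of mean FPKM, with the line of equal change dashed and members past the threshold circled. With siSRSF1-3, 29 of the 50 highest members lie within 0.5 of the line and 0 are circled, and with siSRSF1-2 the parents lie between -0.68 and 0.21 and 11 members are circled.

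With OE-LINC01134 against blank cells, 0 members passed the threshold by limma in either direction, where 0.257% of all genes were higher and 0.593% lower. Without adjustment of p the counts were 11 and 2 of the 200, where 2.45% and 5% of all genes were. By voom 0 members were called, where 1.98% of all genes were. The median log2 fold change was 0.13, beside -0.02 for ribosomal protein genes, 0.17 for other pseudogenes and 0.05 for all genes. Above every blank library were 25 members (12.5%), where 16.8% of all genes were, and below were 6 (3%), where 13.8% were. The ratio to the parent passed for 0 members (10 higher and 2 lower at an unadjusted p, where 7.53% and 2.26% of all pairs were), and 0% of all pairs passed in either direction, and 141 members lay within 0.5 of the parent's log2 fold change. Without OE-LINC01134 replicate 2, 10 members passed on the level and 11 on the ratio, where 8.78% of all genes and 9.41% of all pairs did. Without blank replicate 1 it was 7 and 2 members, where 5.49% of genes and 2.51% of pairs did.

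With OE-LINC01134, RPL26 pseudogene 28 had the smallest p among higher members. It had 1.19, 0.841 and 1.53 FPKM, each above the blank libraries (log2 fold change 1.94, limma adjusted p = 0.0768). The same blank libraries enter the siSRSF1-2 comparison, so its low blank values count in both. On the lower side the RPL13A pseudogene on chromosome 22 (ENSG00000250318), an unprocessed copy within the gene of dual specificity phosphatase 18, had 2.95, 4.66 and 4.75 FPKM in blank cells and 1.35, 2.15 and 1.31 with OE-LINC01134 (-1.31, limma adjusted p = 0.0678), while RPL13A had -0.02. RPSA pseudogene 52 had -1.59 (limma adjusted p = 0.133) and RPL22 pseudogene 1 had -0.35 (limma adjusted p = 0.134).

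Between the siRNAs, siSRSF1-3 against siSRSF1-2, the median log2 fold change of the members was 0.91, beside 1.29 for ribosomal protein genes, -0.49 for other pseudogenes and -0.02 for all genes. By limma 0 members were higher and 0 lower past the threshold, where 0.0342% of all genes were higher and 0.0513% lower. Without adjustment of p the counts were 66 and 16 of the 200, where 9.01% and 7.42% of all genes were. By voom 0 members were called, where 0.627% of all genes were. Above every siSRSF1-2 library were 84 members (42%), where 27.0% of all genes were, and below were 18 (9%), where 27.6% were. Without siSRSF1-3 replicate 3, 132 of the 200 members passed, where 30.6% of all genes did. The ratio to the parent passed for 0 members (5 higher and 36 lower at an unadjusted p, where 3.76% and 17.7% of all pairs were), and 0% of all pairs passed in either direction. Without siSRSF1-3 replicate 3, 73 members passed on the ratio, where 39.0% of all pairs did. More than 1 below the parent's log2 fold change were 61 members and more than 1 above were 13, where 287 and 51 of all 797 pairs were.

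Among the members, RPL29 pseudogene 19 had the smallest p of this comparison, with a log2 fold change of 2.40 (standard error 0.47, limma adjusted p = 0.0725), next to 1.13 for RPL29. The RPL32 pseudogene on chromosome 7 (ENSG00000146677), a copy of a large-subunit gene, had 5.97, 4.40 and 5.60 FPKM with siSRSF1-2 and 17.1, 14.5 and 9.28 with siSRSF1-3, without overlap (1.31, limma adjusted p = 0.0725). RPL13A pseudogene 20 (ENSG00000234498) had 1.60 (limma adjusted p = 0.0761), and had its 2 highest values with OE-LINC01134, at 70.4, 24.4 and 61.3 FPKM against 12.2 to 26.7 in blank cells. On the lower side RPS26 pseudogene 21 (ENSG00000242829) had 1.30, 2.43 and 1.78 FPKM with siSRSF1-2 and 0.440, 0.791 and 0.737 with siSRSF1-3 (-1.35, limma adjusted p = 0.0773). RPSA pseudogene 52 had -3.33 (limma adjusted p = 0.0792) and RPL36A pseudogene 33 (ENSG00000235619) had -1.59 (limma adjusted p = 0.0801) on 6.67 reads per library.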

How the data were processed

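RNA of 12 U2OS libraries was sequenced by the study. According to the supplementary methods mRNA was selected with poly-T beads and a NEBNext kit, whereas the labels name a SMARTER kit. The authors deposited FPKM per gene and library with gene lengths and coordinates. FPKM times length, divided by the value of 1 read in each library, came within 0.1 of a whole read for 100% of values, and these reads served for read numbers and for voom. Members were the 200 ribosomal protein pseudogenes with the highest mean FPKM. The members, lists and tests were chosen with earlier results of these data known. Parents were matched through full names, both as "X pseudogene" with a number and as "X (symbol) pseudogene", and were found for 200 of 200 members.

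Each pair of groups was fitted on its own with limma 3.58.1 in R 4.3.3 (lmFit, eBayes with a trend) on log2(FPKM + 0.1), over 17538 genes with a mean of at least 0.5 FPKM, with Benjamini-Hochberg adjustment over all of them. All 200 members passed this filter. The log2 ratio of pseudogene to parent was tested in the same way over 797 pairs of all families. A fold change on this scale understates the change of low genes. Single sums were compared with exact two-sided permutation tests. The fit was tested on simulated data with the same spread in every library, so that test does not cover groups as uneven as siSRSF1-3. Named members were the 10 highest, those at the edge of the list, the 3 strongest in each direction of each comparison (by fold among those past the threshold, otherwise by p), the 3 highest and lowest by r, the 3 highest relative to the parent, and the 5 largest families. Some members that this rule names are not reported here.

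Alternatives were pseudocounts of 1 and 0.01, no filter, other scalings, 1 fit over 4 groups, a replicate block, voom, a loess trend on length removed and the omission of each library. No human reference was used here, so sequence identity of members and parents was not analysed here.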

Additional observations from a re-analysis of the deposited data

Results flagged for a closer look

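Members were looked at again where every library of one siRNA moved one way from the blank libraries and every library of the other siRNA the opposite way. Above every blank library with siSRSF1-3 and below every blank library with siSRSF1-2 were 16 members (8%), where 1.78% of all genes tested and 38 of the 78 ribosomal protein genes were. The reverse held for 1 member (0.5%), RPL32 pseudogene 3, and for 1.60% of all genes. Among those the named-gene rule covers, the log2 fold change of siSRSF1-3 against siSRSF1-2 was 1.84 for RPS28 pseudogene 7, 1.66 for the RPL36A pseudogene on chromosome 11, 2.12 for RPL10 pseudogene 9, 1.49 for the RPS27 pseudogene on chromosome 12, 1.37 for RPL10 pseudogene 16, 2.21 for RPL21 pseudogene 16, 1.80 for RPL22 pseudogene 1 and 1.31 for the RPL32 pseudogene on chromosome 7. The difference itself was tested with limma between the siRNA groups. Of the 17 members 0 passed (limma adjusted p between 0.0725 and 0.108), where 0.0855% of all genes did. By voom 0 of them passed, where 0.627% of all genes did. All 16 lay in the upper part of the list, at ranks 1 to 71. RPL32 pseudogene 3 had 3.91, 3.75 and 3.46 FPKM in blank cells, 4.29, 4.16 and 4.36 with siSRSF1-2 and 2.56, 2.10 and 3.45 with siSRSF1-3, and its parent RPL32 was higher with siSRSF1-3.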

How the results depend on the processing

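Some counts of calls changed with the fit. Set against the main setting, 34 alternative values for the whole list moved and 124 stayed near it, counts and medians together. In 1 fit over all 4 groups, which shares the spread of all libraries, members past the threshold came to 61 with siSRSF1-3, 2 with siSRSF1-2, 2 with OE-LINC01134 and 79 between the siRNAs, and the ratio to the parent passed for 4, 0, 0 and 28. In the same fits 13.8%, 1.79%, 3.93% and 15.6% of all genes passed, and 3.01%, 0.125%, 0% and 14.4% of all pairs. At an unadjusted p they came to 63, 14, 13 and 82 on the level and 26, 17, 12 and 41 on the ratio, where 14.8%, 6.49%, 7.45% and 16.4% of all genes and 14.9%, 12.4%, 9.79% and 21.5% of all pairs passed. Without single libraries the calls ranged from 0 to 114 with siSRSF1-3, 3 to 15 with siSRSF1-2, 0 to 10 with OE-LINC01134 and 0 to 132 between the siRNAs. Of all genes, 0% to 23.9%, 3.04% to 6.77%, 0.00570% to 8.78% and 0% to 30.6% were called in those fits. Calls on the ratio ranged from 0 to 49, 2 to 16, 0 to 11 and 0 to 73. Of all pairs, 0% to 26.0%, 1.88% to 9.28%, 0% to 9.41% and 0% to 39.0% were called. With a pseudocount of 1, 1 member passed with siSRSF1-3 and 7 with siSRSF1-2, where 1.78% and 2.16% of all genes did. The voom fit called 1 with siSRSF1-3, where 3.35% of all genes were called. With the siSRSF1-2 libraries averaged into 1 sample, 0 members passed with siSRSF1-2, and so did 0 of all genes, so that fit says nothing about these calls. The member median with siSRSF1-2 was 0.14 with FPKM rescaled to the same sum, which moved the median of all genes from 0.02 to 0.15. With siSRSF1-3 own read totals moved the median of all genes to -0.26 and the same sum to -0.43, and the member median was 0.61 and 0.45. The median r with the parent was 0.22 over 10 libraries and 0.57 over deviations from group means, the latter with siSRSF1-3 replicates 1 and 2 included. RPS2 pseudogene 5 with siSRSF1-3 turned from 0.13 to -0.13 with own read totals, -0.32 with the same sum and -0.045 with the length trend removed, and lay between -0.20 and 0.51 without single libraries (-0.20 without siSRSF1-3 replicate 2). With the replicate number as a block the calls on the level were 0, 10, 0 and 0 in the same order, where 0%, 3.88%, 0.0228% and 0% of all genes were called. On the ratio there were 9 with siSRSF1-2, where 4.89% of all pairs were called. Same-numbered libraries deviated together with r between -0.08 and 0.04, so the numbers gave no pairing. Of the other results for single members, 546 kept their direction and side of the threshold, 59 passed it and 42 lost it. Depth limits the lower members most, 24 of which had under 10 reads per library. The cause of these changes was not tested.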
